A study of Mus musculus with 19 samples.

Results

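The erythroid genes are 9 genes of red cell formation and function, chosen by name and not by any measured value: Alas2, Hbb-bs, Ahsp, Slc4a1, Epb42, Gata1, Klf1, Epor and Tfrc. By symbol, 7 of the 9 were found among the 13549 genes of an embryonic liver count table. By Ensembl gene ID, 8 of the 9 were found among the 17606 genes of the tumour files. Hbb-bs was thus matched in the tumours alone, and Ahsp, matched in neither, was not analysed here.

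The RNA came from mice that model fibrolamellar carcinoma, a cancer of the liver driven by a fusion of DNAJB1 with PRKACA, which encodes a catalytic subunit of protein kinase A. The embryonic livers were taken at day 18.5 of gestation, 5 from control embryos and 4 from embryos of the genotype DNAJ1B-PKA_Overexpression, called fusion embryos here. The model joins a Rosa26 LSL-DNAJB1-PKA-GFP allele, silent until Cre removes its stop cassette, with Alb-Cre, whose albumin promoter drives Cre in liver from mid-gestation, so that red cell precursors are not its target. The alleles carried by the control embryos and the strain background are not given in the sources used here. The tumours grew from FL8, a single line whose origin the labels do not describe, set in gelatin capsules beneath the skin of NSG mice. NSG hosts lack mature lymphocytes but make their own red cells, platelets, neutrophils and macrophages, and host and tumour are both mouse, so that their transcripts cannot be told apart. After randomization at a mean tumour size of 75 mm3, 5 tumours came from mice given carrier alone, called vehicle tumours here, and 5 from mice given palbociclib, which blocks the cell cycle kinases CDK4 and CDK6. The oral dose was 75 mg/kg on each of 3 days in a row, and 4 days without drug followed. The labels do not say that the samples of a group came from separate litters or mice, so p-values measure only the spread between these samples.

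In the fetal liver, red cells are made in islands around macrophages until the marrow takes over near birth. Erythropoietin acts through its receptor Epor, GATA1 and KLF1 switch on the red cell programme, transferrin receptor (Tfrc) brings in iron, and ALAS2 starts haem synthesis in step with globin production. Band 3 (Slc4a1) and protein 4.2 (Epb42) anchor the membrane skeleton. The nucleus is then lost, and the reticulocytes that enter the blood still hold globin and Alas2 transcripts. Tfrc serves all dividing cells, and Epor is also made outside the red cell lineage, so that neither marks red cells alone.

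On mm10 with GENCODE M21, all 8 measured genes are annotated as protein-coding. Alas2 lies at chrX:150547375-150570638 on the plus strand and Hbb-bs, an adult beta globin gene, at chr7:103826534-103828096 on the minus strand. Slc4a1 lies at chr11:102348824-102366203 (minus), Epb42 at chr2:121017891-121037072 (minus), Gata1 at chrX:7959260-7978071 (minus) and Klf1 at chr8:84901928-84905291 (plus). Epor lies at chr9:21958897-21963506 (minus) and Tfrc at chr16:32608920-32632794 (plus). Only Alas2 shares exon bases with other annotated genes: 12.9% of its exon bases are also exon of Apex2, a DNA repair gene on the opposite strand, and 2.54% are the microRNA gene Mir3620. Whether strand was used in counting is not stated. Apex2 itself ranged from 5.67 to 11.4 CPM (counts scaled for library size) in the embryos and from 5.79 to 23.0 CPM in the tumours.

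RefSeq promoters on GRCm38.p6, the same build as mm10 though with some starts placed elsewhere than in GENCODE, were at hand for 7 of the 8 measured genes, all but Slc4a1. The sequences just before the start are shown for Alas2, Hbb-bs, Klf1 and Epor, which stand for haem synthesis, globin, a transcription factor and a receptor, and which hold the letters AGATAA or TGATAA, the motifs bound by GATA factors. Hbb-bs is shown at greater length so that its match is in view. They are written 5′ to 3′ on the strand of the gene. Capitals mark matches to AGATAA or TGATAA on either strand. Matches to CCNCNCCC, the motif bound by KLF1, are in capitals as well, and where they overlap they run together. Alas2 is chrX:150547267-150547416 (plus), Hbb-bs chr7:103827929-103828178 (minus), Klf1 chr8:84901832-84901981 (plus) and Epor chr9:21963577-21963726 (minus).
Alas2: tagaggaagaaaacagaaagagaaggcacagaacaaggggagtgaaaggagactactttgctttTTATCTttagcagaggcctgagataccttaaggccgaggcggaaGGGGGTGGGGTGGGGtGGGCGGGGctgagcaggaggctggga
Hbb-bs: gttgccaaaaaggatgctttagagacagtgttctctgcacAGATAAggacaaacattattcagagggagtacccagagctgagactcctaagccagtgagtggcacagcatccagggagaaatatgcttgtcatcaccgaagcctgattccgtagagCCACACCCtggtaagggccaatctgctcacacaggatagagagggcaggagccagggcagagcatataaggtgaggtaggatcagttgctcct
Klf1: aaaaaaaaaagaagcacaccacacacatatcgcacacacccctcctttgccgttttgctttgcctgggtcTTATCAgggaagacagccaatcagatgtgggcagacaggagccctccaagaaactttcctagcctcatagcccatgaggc
Epor: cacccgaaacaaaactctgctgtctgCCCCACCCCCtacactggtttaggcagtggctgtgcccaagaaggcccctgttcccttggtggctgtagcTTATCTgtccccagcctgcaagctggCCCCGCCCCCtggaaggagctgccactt
In the Alas2 sequence AGATAA stands on the opposite strand, 86 bases before the start, followed by 4 matches to CCNCNCCC from 42 to 26 bases before it. Hbb-bs has AGATAA 210 bases before its start and CCNCNCCC 93 bases before it. Klf1 has TGATAA on the opposite strand 80 bases before its start and no CCNCNCCC. Epor has AGATAA on the opposite strand 54 bases before its start and 4 matches to CCNCNCCC. Of the others, Epb42 has AGATAA on the opposite strand 226 bases before the start, Gata1 has 3 matches to CCNCNCCC and no GATA motif, and each of 2 Tfrc promoters has CCNCNCCC alone. Over all 32851 RefSeq promoters, the same 250 bases hold AGATAA in 9.99%, TGATAA in 7.94%, either in 16.6%, CCNCNCCC in 45.9% and a GATA motif together with CCNCNCCC in 4.52%. A match is a description of letters and not a binding site.

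The embryo libraries held 7660736 to 45591301 counts, vehicle tumours 2955729 to 33863983 reads and palbociclib tumours 24857723 to 43141761 reads. The shallow tumour library is vehicle 5, where a count of 3, taken as the floor, is 1.01 CPM, against 0.0695 to 0.142 CPM in the other 9. Vehicle 1 also stands apart, with 46.6% of its reads from mitochondrial genes against 1.24% to 6.47% in the others. A high share of ribosomal protein counts, 9.72% to 10.1%, sets controls 1 and 2 and fusions 8 and 9 apart from the remaining 5 livers, at 6.19% to 7.88%. By the level of Xist, controls 3, 4 and 5 and fusion 9 were taken as male and the remaining 5 as female. Prkaca, part of the transgene, ranged from 36.3 to 50.5 CPM in control and from 52.0 to 114 CPM in fusion livers, a log2 fold change of 0.78 ± 0.22 (SE), adjusted p = 0.0379 in edgeR. All 12 hepatocyte markers were detected in both kinds of sample, with summed levels of 181785 to 229997 CPM in the livers and 43244 to 133648 CPM in the tumours. Vehicle 1 had the lowest of these sums.

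The first comparison asks whether the fusion changes red cell genes of the fetal liver. All 7 measured genes were present in every liver, and none differed between fusion and control embryos beyond the spread between livers. The log2 fold changes ran from -0.28 for Slc4a1 to 0.37 for Epb42. In edgeR's quasi-likelihood test 0 of 7 had an adjusted p under 0.05, 0 an unadjusted p under 0.05 and 0 passed in DESeq2. Over the 13316 genes tested in edgeR these shares were 12.8% and 29.3%, and DESeq2 called 18.3% of 13549 genes. The 2 groups overlapped for all 7 genes, where 16.5% of all genes did not overlap. In whole tissue, fewer cells of a type and less RNA per cell cannot be told apart.

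Alas2, the enzyme that starts haem synthesis in red cells, was at 1703, 1517, 1054, 1287 and 1377 CPM (after TMM scaling, as for all embryo levels) in controls 1 to 5 and at 986, 1155, 1485 and 1364 CPM in fusion 6 to 9. The lowest liver was a fusion liver and the highest a control, with the other 7 mixed. Means were 1388 ± 244 (SD, n = 5) and 1247 ± 221 CPM (SD, n = 4), and the log2 fold change was -0.15 ± 0.18 (SE), adjusted p = 0.614 in edgeR.

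Slc4a1, the anion exchanger band 3, was at 1964, 1703, 1094, 1323 and 1514 CPM in controls 1 to 5 and at 1238, 1028, 1325 and 1432 CPM in fusion 6 to 9. Controls 1, 2 and 5 lay above every fusion liver and control 3 was the second lowest of all. Its log2 fold change was -0.28 ± 0.19 (SE), adjusted p = 0.361 in edgeR. Epb42, which ties band 3 to the skeleton, varied most: 19.5, 24.4, 32.4, 56.0 and 62.9 CPM in the controls and 82.3, 53.3, 35.7 and 30.7 CPM in the fusion livers. Fusion 6 was the highest of the 9 and controls 1 and 2 the lowest. The SD of Epb42 was 49.5% of the mean in controls and 46.1% in fusion livers, and the log2 fold change was 0.37 ± 0.37 (SE), adjusted p = 0.550 in edgeR. Without fusion 6 it was 0.03 (edgeR adjusted p = 0.970).

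Gata1, the transcription factor that red cells and megakaryocytes depend on, was at 245, 221, 134, 150 and 155 CPM in controls 1 to 5 and at 135, 164, 153 and 175 CPM in fusion 6 to 9. Controls 1 and 2 lay above all other livers. Its log2 fold change was -0.21 ± 0.19 (SE), adjusted p = 0.504 in edgeR. Klf1, which activates the adult beta globin gene, ranged from 120 to 179 CPM in controls and from 153 to 212 CPM in fusion livers, and fusion 6 was highest. Its log2 fold change was 0.17 ± 0.15 (SE), adjusted p = 0.469 in edgeR.

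Tfrc was at 1253, 1491, 534, 687 and 658 CPM in controls 1 to 5 and at 602, 821, 1093 and 917 CPM in fusion 6 to 9, with controls 1 and 2 again the highest. Its log2 fold change was -0.11 ± 0.31 (SE), adjusted p = 0.851 in edgeR, with the widest standard error after Epb42. Epor was the least variable, at 80.9 to 106 CPM in controls and 83.9 to 93.1 CPM in fusion livers, an SD of 11.4% and 4.38% of the mean. The log2 fold change of Epor was -0.05 ± 0.11 (SE), adjusted p = 0.815 in edgeR.

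**Figure D1:**
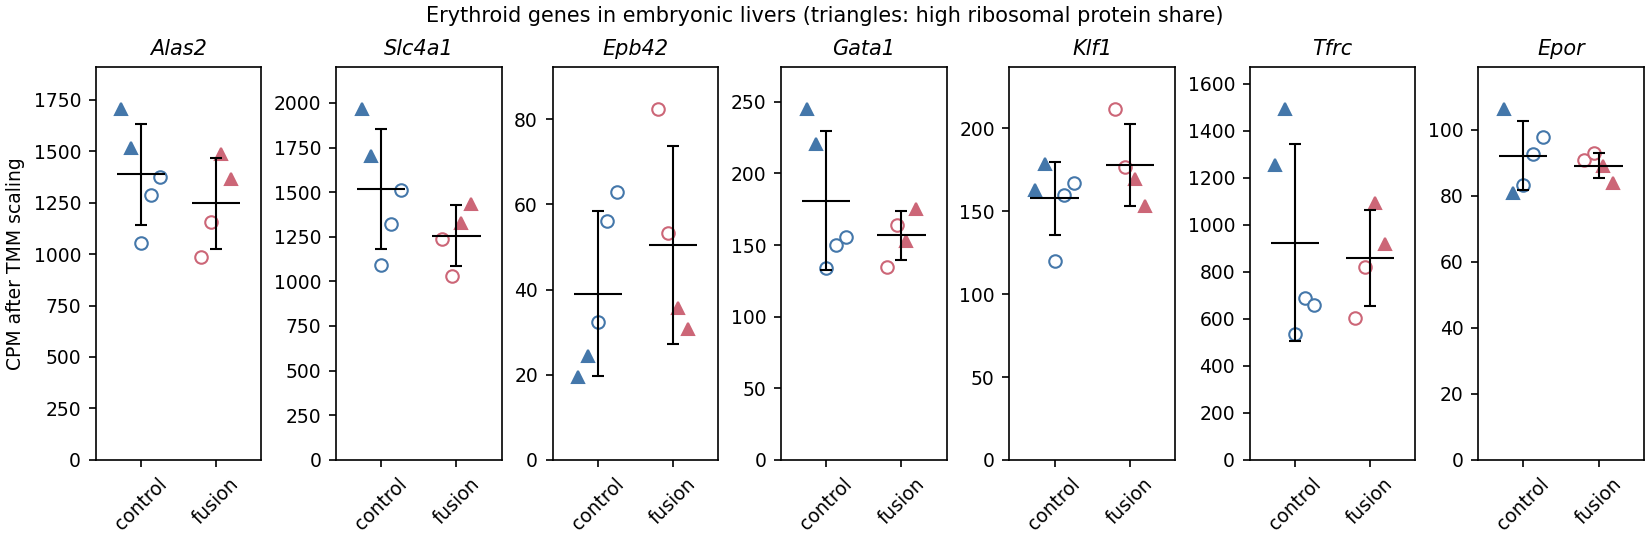
Levels of the 7 measured erythroid genes in each embryonic liver (CPM after TMM scaling, linear axes from 0), with the mean and SD of each group as bars; filled triangles are livers with a high share of ribosomal protein counts. Control and fusion livers overlap in every panel, and the triangles lie high for Tfrc and low for Epb42.

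Per kilobase of exon, the order in control livers was Alas2 at 577 ± 102 CPM per kilobase (SD, n = 5), Slc4a1 at 311 ± 68.6, Tfrc at 149 ± 68.1, Klf1 at 103 ± 14.5, Gata1 at 74.3 ± 19.9, Epor at 46.4 ± 5.26 and Epb42 at 7.21 ± 3.57 CPM per kilobase. The fusion livers had the same order, from 519 ± 92.1 (SD, n = 4) for Alas2 to 9.32 ± 4.30 CPM per kilobase for Epb42. Alas2 lay above Slc4a1, Gata1 above Epor and Epor above Epb42 without overlap in both groups. Tfrc and Klf1 overlapped in both groups, and in controls Slc4a1 overlapped with Tfrc and Klf1 with Gata1.

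The division of livers by ribosomal protein share moved with several of these genes, and its part in the comparison was examined within each set. Tfrc ranged from 917 to 1491 CPM in the 4 livers of high share and from 534 to 821 CPM in the other 5, with no overlap. How many of all genes separate by this division was not counted, so Tfrc is not shown to be unusual. Alas2 ranged from 1364 to 1703 against 986 to 1377 CPM, Slc4a1 from 1325 to 1964 against 1028 to 1514 CPM and Gata1 from 153 to 245 against 134 to 164 CPM, all with some overlap. Epb42 ran the other way, from 19.5 to 35.7 CPM in the livers of high share and from 32.4 to 82.3 CPM in the others. Summed hepatocyte markers also differed, at 181785 to 201072 CPM in the livers of high share and 209465 to 229997 CPM in the others. The source of the division was not tested.

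With library set as a covariate, edgeR called Epb42, higher in fusion livers by 0.51 on the log2 scale (adjusted p = 0.0444), and no other of the 7 genes. That is 1 of 7, where 32.7% of 13436 genes passed. An unadjusted edgeR p under 0.05 was seen there for 2 of 7, Epb42 and Slc4a1 (-0.30), against 5926 of 13436 genes. Within the 4 livers of high share, Epb42 (0.62; edgeR adjusted p = 0.0288) and Gata1 (-0.49; edgeR adjusted p = 0.0377) passed, 2 of 7 against 20.0% of 12930 genes. In these 4 livers, 4 of 7 had an unadjusted edgeR p under 0.05, the others being Slc4a1 (-0.40) and Tfrc (-0.44), against 4709 of 12930 genes. Gata1 was at 221 and 245 CPM in these controls and at 153 and 175 CPM in these fusion livers. The 5 other livers gave a Gata1 log2 fold change of 0.02 (edgeR adjusted p = 0.910). In those 5 livers 0 of 7 erythroid genes passed in edgeR, against 21.8% of 13524 genes, and 1 had an unadjusted p under 0.05, Klf1 with a log2 fold change of 0.38, against 36.7%. Genotype cannot be told apart from sex there, since the 3 controls are male and both fusion embryos female. A test of genotype by library set found no difference past the threshold for any of the 7 genes, with edgeR adjusted p-values from 0.196 for Gata1 to 0.963 for Alas2, where 0.185% of 13509 genes passed. In that test 2 of the 7, Gata1 and Tfrc, had an unadjusted p under 0.05, against 16.9% of all genes.

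Among 86 genes of 6 red cell lists, 76 were tested in the livers, and edgeR called 1 higher and 0 lower, where it called 12.8% of all genes. The median log2 fold change of the 76 was 0.00, against -0.01 for all genes. The called gene was Alas1, the form of the enzyme used outside red cells, which ranged from 41.3 to 55.3 CPM in the 5 controls and from 82.6 to 115 CPM in the 4 fusion livers without overlap. Alas1 rose by 1.00 ± 0.13 on the log2 scale (SE), adjusted p = 0.00109 in edgeR, while Alas2 did not pass. Of the other genes of haem synthesis, Alas2 included, 0 of 12 passed. In the remaining lists 0 of 3 globin genes, 0 of 18 membrane and skeleton genes, 0 of 14 transcription factors, 0 of 12 genes of erythropoietin signalling and iron uptake and 0 of 16 genes of red cell enzymes and maturation passed in edgeR. At an unadjusted p under 0.05, 8 of the 76 genes were higher, Alas1 among them, and 4 lower, where 13.9% of all genes were higher and 15.4% lower. DESeq2 also called Kel, Tal1 and Hemgn, where it called 18.3% of all genes.

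The gene nearest the threshold in each of these lists had the following values. Kel, a blood group antigen of the red cell membrane, had a log2 fold change of -0.45 ± 0.14 (SE), adjusted p = 0.0572 in edgeR. Hemgn, a nuclear protein of blood-forming cells, had 0.67 ± 0.21 (SE), adjusted p = 0.0615 in edgeR, and Tal1, a partner of GATA1, 0.47 ± 0.15 (SE), adjusted p = 0.0679 in edgeR. The embryonic globin Hbb-y had 0.36 ± 0.17 (SE), adjusted p = 0.184 in edgeR and the iron sensor Tfr2 -0.23 ± 0.12 (SE), adjusted p = 0.216 in edgeR. The adult globin genes were not analysed in the livers.

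Markers of other blood cells are given beside these values, and their counts at an unadjusted p under 0.05 stand against the 13.9% of all genes that were higher and the 15.4% that were lower. Their counts at the adjusted threshold stand against 12.8% of all genes called in edgeR and 18.3% in DESeq2. Of 10 megakaryocyte and platelet markers 0 passed in edgeR, 5 were lower at an unadjusted p under 0.05 and 1 passed in DESeq2; their median log2 fold change was -0.52, and their sum ranged from 449 to 728 CPM in controls and from 326 to 568 CPM in fusion livers. Of 10 neutrophil markers 0 passed in edgeR, 3 were lower at an unadjusted p under 0.05 and DESeq2 called Lcn2, with sums of 6193 to 8732 and 4901 to 7263 CPM. Of 11 macrophage markers 0 passed in edgeR, 2 were lower at an unadjusted p under 0.05 and DESeq2 called C1qb and Clec4f, with sums of 1169 to 1507 and 1013 to 1212 CPM. Of 7 lymphocyte markers 0 passed in edgeR or DESeq2 and 1 was higher at an unadjusted p under 0.05, with sums of 113 to 204 and 126 to 155 CPM. Of 8 stem and progenitor markers 2 were higher and 1 lower at an unadjusted p under 0.05, with sums of 64.5 to 78.7 and 70.7 to 82.1 CPM. Among these 8, edgeR called Hlf lower and DESeq2 called Hlf lower and Kit higher. No marker of these 5 lists was at 0 in either group, and their part in the red cell values was not tested.

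The next comparison asks whether palbociclib changes red cell genes of the tumours. Transcripts of Alas2, Hbb-bs and Slc4a1 lay lower in the palbociclib tumours on average, with large differences between the vehicle tumours, and no gene passed the threshold. In limma on log2(CPM + 1), 0 of 12829 genes (0%) had an adjusted p under 0.05 and 586 an unadjusted p under 0.05; on recovered reads edgeR called 0 genes and DESeq2 8, none of them an erythroid gene. Of the 8 measured erythroid genes, 6 reached the mean of 1 CPM needed for the test and Klf1 and Gata1 did not. None of these 6 was free of overlap between the groups, where 0.935% of all genes were.

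Alas2 was at 279, 455, 1646, 142 and 37.2 CPM in vehicle tumours 1 to 5 and at 30.2, 82.004, 38.0, 103 and 66.0 CPM in palbociclib tumours 1 to 5. Vehicle tumours 1 to 4 lay above every palbociclib tumour, and vehicle 5, with 110 Alas2 reads, lay among them. The highest vehicle tumour had 44.2 times the Alas2 level of the lowest, against 3.43 times among palbociclib tumours. Means were 512 ± 653 and 63.9 ± 30.4 CPM (SD, n = 5 each). The log2 fold change was -2.13 ± 0.69 (SE), adjusted p = 0.953 in limma.

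Hbb-bs was at 6070, 16429, 46877, 4066 and 270 CPM in vehicle tumours 1 to 5 and at 673, 2922, 1147, 3104 and 2343 CPM in palbociclib tumours 1 to 5. Vehicle 3 was highest and vehicle 5 lowest of all 10. The log2 fold change was -1.66 ± 0.95 (SE), adjusted p = 0.953 in limma. All globin genes in the files together took 1.66%, 3.62%, 9.50%, 1.04% and 0.126% of the reads of the vehicle tumours and 0.170%, 0.837%, 0.342%, 0.779% and 0.628% of those of the palbociclib tumours. They include the embryonic Hbb-y, which had at most 130 reads in a tumour. The coding sequences of Hbb-bs and Hbb-bt are identical at 443 of 444 bases and those of Hba-a1 and Hba-a2 at 428 of 429, so that the division of reads within each pair is uncertain. Hbb-bt held 8.21% to 16.4% of the reads of its pair and Hba-a2 0.0424% to 1.66%.

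Slc4a1 was at 21.1, 25.4, 62.0, 1.70 and 0 CPM in the vehicle tumours and at 1.08, 3.79, 0.713, 3.04 and 1.21 CPM in the palbociclib tumours. Vehicle 1, 2 and 3 lay above all other tumours, and the 0 of vehicle 5 allows up to 1.01 CPM at its depth. The log2 fold change was -1.87 ± 0.84 (SE), adjusted p = 0.953 in limma. Epb42 was at 1.77, 1.85, 5.32, 0.444 and 0 CPM in the vehicle tumours and at most 0.997 CPM in the palbociclib tumours, 2 of which had no read. Its log2 fold change was -0.88 ± 0.47 (SE), adjusted p = 0.953 in limma.

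The transcription factors were close to absent. Gata1 had 12, 2 and 10 reads in vehicle 1, 2 and 3, which is 0.354, 0.0949 and 0.355 CPM, and no read in the other 7 tumours. In the 5 palbociclib tumours a count of 0 allows up to 0.0695 to 0.121 CPM. Klf1 was at 0.177, 0.664, 1.06, 0 and 0 CPM in the vehicle and at 1.14, 0, 0, 0.464 and 0.402 CPM in the palbociclib tumours, so that the highest value, from 40 reads, was in palbociclib 1, where Alas2 was lowest.

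Of the receptors, Tfrc was at 18.1, 68.5, 38.3, 35.3 and 47.7 CPM in vehicle tumours and at 47.0, 44.0, 36.6, 32.9 and 38.0 CPM in palbociclib tumours, with the palbociclib values inside the vehicle range. Its log2 fold change was 0.04 ± 0.30 (SE), adjusted p = 0.987 in limma and changed sign with TMM scaling, to -0.10. Epor was at 6.91, 11.4, 6.99, 5.61 and 1.35 CPM in vehicle tumours and at 3.99, 1.04, 2.47, 2.48 and 9.61 CPM in palbociclib tumours. The log2 fold change of Epor was -0.65 ± 0.47 (SE), adjusted p = 0.953 in limma. Without vehicle 5, where Epor rests on 4 reads, it was -1.02 (adjusted p = 0.632 in limma).

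**Figure D2:**
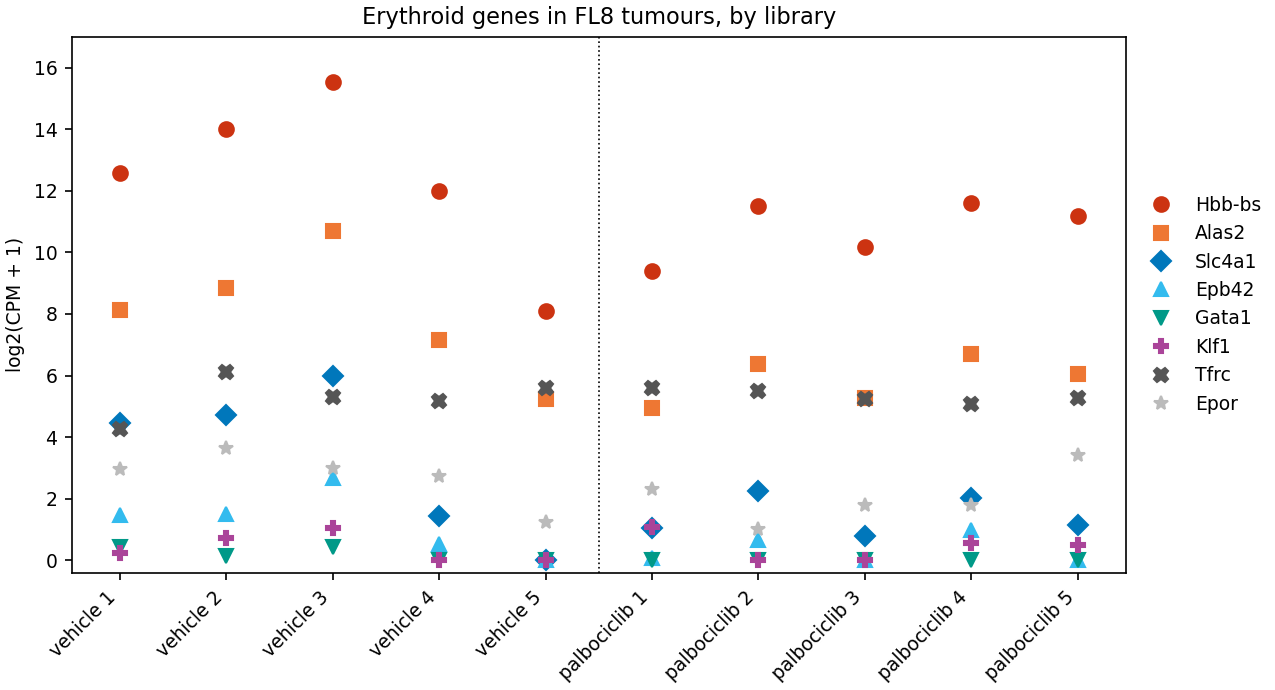
Levels of the 8 measured erythroid genes in each FL8 tumour as log2(CPM + 1), with vehicle tumours to the left of the dotted line and palbociclib tumours to the right. Hbb-bs, Alas2, Slc4a1 and Epb42 peak in vehicle 3 and are low in vehicle 5, while Tfrc stays between 18.1 and 68.5 CPM.

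Epb42 reached the mean of 1 CPM only through the vehicle tumours. Among the 6 tested genes, 2 (Alas2 and Slc4a1) had an unadjusted limma p under 0.05 and were lower with palbociclib, where 0.842% of all genes did so. A log2 fold change of -1 or lower was seen for 3 of 6 (Alas2, Slc4a1 and Hbb-bs), where 0.499% of all genes reached it. The median over all genes was 0.14, a shift that TMM scaling took to 0.01. Because vehicle tumours differ so widely, the values depend on single libraries. Without vehicle 5, the log2 fold changes were -2.82 for Alas2, -2.75 for Hbb-bs and -2.70 for Slc4a1 (limma adjusted p = 0.274, 0.314 and 0.353) and -1.19 for Epb42 (limma adjusted p = 0.604). Without vehicle 5, 7.17% of 12857 genes had an unadjusted limma p under 0.05, counted in either direction. Alas2, Hbb-bs, Slc4a1 and Epor did so, all of them lower with palbociclib. Epb42 did so too, but it is not counted here because it was tested only through the vehicle tumours. Every palbociclib tumour lay below every remaining vehicle tumour for 2 of 6 genes, Alas2 and Hbb-bs, against 0.460% of all genes. This count was made only without vehicle 5, the vehicle tumour that breaks the pattern for both genes. Alas2 and Hbb-bs also varied together across tumours (r of 0.99 and 0.98 with a mean that holds them), so they are not separate observations. Without vehicle 3, the log2 fold changes were -1.47 for Alas2, -0.89 for Hbb-bs and -1.20 for Slc4a1 (limma adjusted p = 0.968 for each). Epb42 then fell below the mean of 1 CPM and was not tested. On recovered reads, edgeR gave -3.10 for Alas2, -2.91 for Hbb-bs, -3.64 for Slc4a1 and -2.64 for Epb42 (adjusted p = 0.904 for each) and DESeq2 an adjusted p of 0.161 for Alas2.

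**Figure D3:**
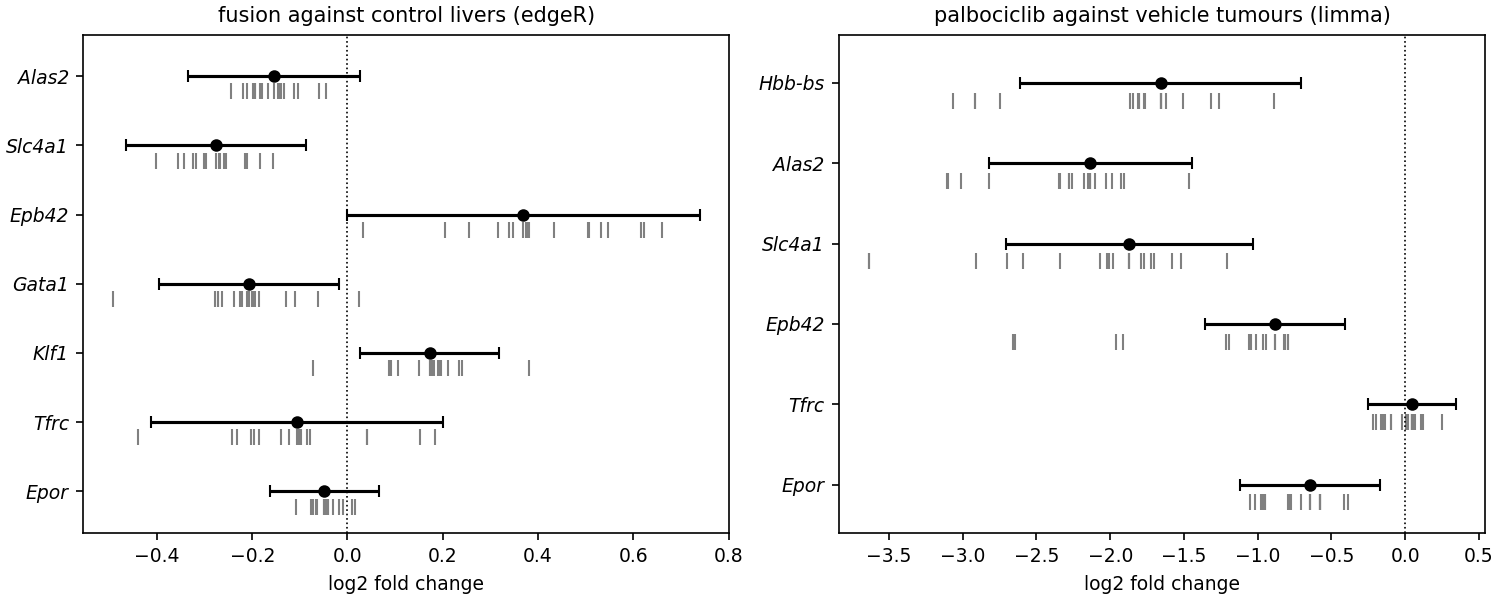
Log2 fold changes of the tested erythroid genes in fusion against control livers (left, edgeR) and palbociclib against vehicle tumours (right, limma on log2(CPM + 1)), as points with bars of 1 SE; grey ticks are the same value under each alternative setting. The liver values stay between -0.49 and 0.66 and the Alas2 values of the tumours between -3.11 and -1.47.

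The ratio of reads within a library does not depend on how libraries were scaled. Per Alas2 read, Hbb-bs had 21.7, 36.1, 28.5, 28.6 and 7.26 reads in vehicle tumours 1 to 5 and 22.3, 35.6, 30.2, 30.0 and 35.5 reads in palbociclib tumours 1 to 5. Vehicle 5, with 799 Hbb-bs reads in all, is the low one. Over the other 9 tumours the ratio varied 1.66-fold, while Alas2 itself varied over the range given above. Hba-a1 had 25.1 to 62.0 reads per Alas2 read over all 10.

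**Figure D4:**
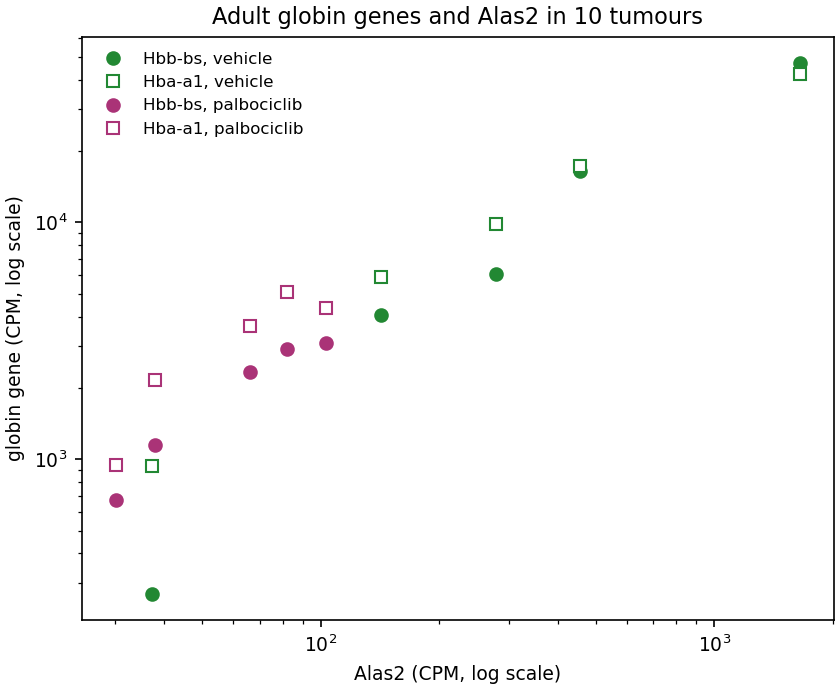
CPM of the adult globin genes Hbb-bs (filled circles) and Hba-a1 (open squares) against Alas2 in the 10 tumours, both axes logarithmic, vehicle in green and palbociclib in purple. The tumours form a line from 30.2 to 1646 CPM of Alas2, with the Hbb-bs value of vehicle 5, 270 CPM, below it.

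Livers and tumours were counted from differently selected RNA and scaled apart, so their values stand side by side without a test. Slc4a1 had 890 to 1255 reads per 1000 Alas2 reads in the 9 livers, with a median of 1050, and 0 to 75.5 in the 10 tumours, with a median of 32.6. Gata1 had 103 to 145 in the livers and 0 to 1.27 in the tumours. Klf1 had 95.8 to 215 in the livers and 0 to 37.8 in the tumours, where palbociclib 1 was highest and the median was 0.640. Epb42 had 11.4 to 83.5 in the livers and 0 to 9.64 in the tumours. For these 4 genes every tumour lay below every liver. How many of all genes separate in this way was not counted, so the separation is not shown to be particular to these 4. Tfrc overlapped, at 478 to 983 in the livers and 23.2 to 1557 in the tumours, and so did Epor, at 53.3 to 92.1 and 4.24 to 146 reads per 1000 Alas2 reads.

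**Figure D5:**
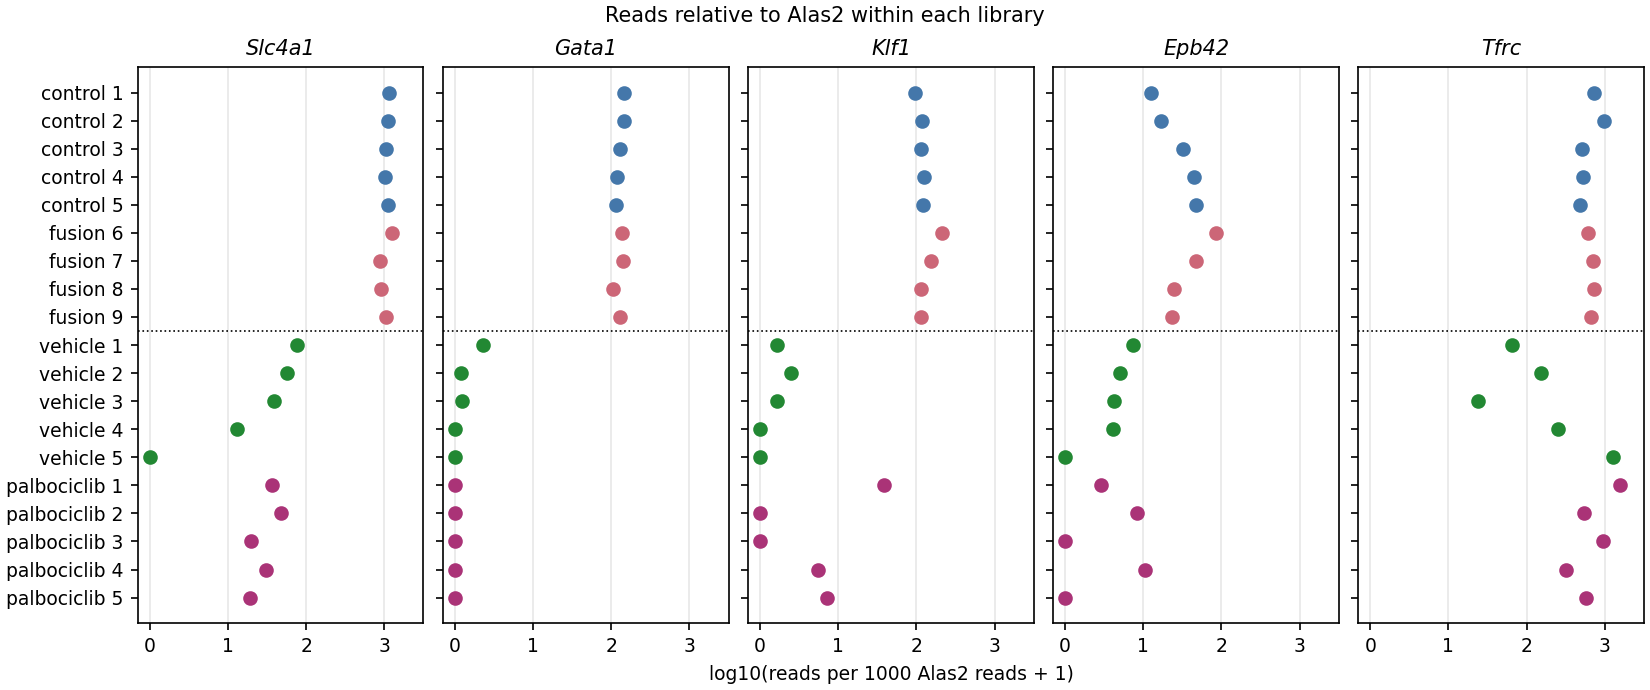
Reads of 5 erythroid genes per 1000 Alas2 reads of the same library, as log10(value + 1), with embryonic livers above the dotted line and tumours below it. Slc4a1, Gata1, Klf1 and Epb42 are lower in every tumour than in any liver, and Tfrc overlaps. The share of all genes that separate in this way was not counted.

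Per kilobase of exon, Hbb-bs had the highest mean in the tumours, at 19196 ± 24655 CPM per kilobase in vehicle and 2654 ± 1407 in palbociclib tumours (SD, n = 5 each). Alas2 followed at 213 ± 272 and 26.6 ± 12.7 CPM per kilobase and Tfrc at 6.72 ± 2.99 and 6.42 ± 0.922 CPM per kilobase. Hbb-bs and Alas2 overlapped in the vehicle tumours and not in the palbociclib tumours, and Alas2 lay above Tfrc without overlap in both groups. In vehicle tumours the order went on with Slc4a1, Epor, Epb42, Klf1 and Gata1, each overlapping with its neighbour. In palbociclib tumours Epor came before Slc4a1 and Klf1 before Epb42, and from Epor on each neighbour overlapped as well.

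Of the 86 genes of the red cell lists, 56 were tested in the tumours and 0 passed in limma, edgeR or DESeq2. At an unadjusted limma p under 0.05, 8 were lower and 1 higher, where 0.842% of all genes were lower and 3.73% higher. The lowest median was that of the globins, -1.78 over 4 genes, and all 4 were lower. Of 9 membrane and skeleton genes, 4 were tested only through the vehicle tumours, their palbociclib mean being under 1 CPM, so that no count over that list is given. Transcription factors had 5 of 8 lower with a median of -0.36, and 1 of the 8 was tested through the vehicle tumours alone. Haem synthesis genes had 4 of 13 lower with a median of 0.09, genes of erythropoietin signalling and iron uptake 4 of 11 lower with a median of 0.09, and red cell enzymes and maturation genes 6 of 11 lower with a median of -0.06, 1 of them tested through the vehicle tumours alone. Over all genes the median was 0.14.

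The gene with the smallest p is given for the lists of globins, transcription factors, and erythropoietin signalling and iron uptake, and for haem synthesis it is Alas2. Hbb-bt, the other adult beta globin gene, had a log2 fold change of -1.89 (limma adjusted p = 0.953). Nfe2, a factor of red cells and megakaryocytes, went the other way at 1.18 (limma adjusted p = 0.953), and the iron reductase Steap3 had 0.68 (limma adjusted p = 0.953). Alas1 had 0.07 (limma adjusted p = 0.980).

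Markers of other blood and vessel cells were set beside these values. The sum of 10 megakaryocyte and platelet markers was 88.9, 52.2, 151, 23.7 and 9.81 CPM in vehicle tumours 1 to 5 and 12.4 to 49.9 CPM in palbociclib tumours, so that vehicle 3 was highest and vehicle 5 lowest, as for Hbb-bs. Of these markers 6 were tested, 1 of them through the vehicle tumours alone, and 0 had an unadjusted limma p under 0.05. Gp6 was at 0 in all palbociclib tumours. The 11 endothelial markers were all lower, 0 at an unadjusted limma p under 0.05, with a median of -0.36 and sums of 120 to 384 CPM in vehicle and 130 to 161 CPM in palbociclib tumours. The sum of 10 macrophage markers was 1480 CPM in vehicle 1 and 71.4 to 118 CPM in the other vehicle tumours, against 74.6 to 180 CPM with palbociclib, and 9 neutrophil markers summed to 361 to 959 and 499 to 834 CPM. Of 4 lymphocyte markers in the files the sums were 0.677 to 11.4 and 1.21 to 3.21 CPM. Skeletal muscle markers summed to 5.75 to 34.2 and 2.96 to 25.0 CPM, and DESeq2 called 1 of them, Actn3, lower, where it called 8 of 17606 genes. Of the tested neutrophil markers 2 of 4 were lower at an unadjusted limma p under 0.05, where 0.842% of all genes were. The other 2 were higher. The part of these cells in the red cell values was not tested.

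Likeness of pattern was measured as Pearson's r across libraries of log2(CPM + 1) with each group's mean taken out, against the mean of the erythroid genes tested other than Tfrc and Epor. These values describe libraries that share depth and scaling. In tumours and livers alike, genes that make up the mean are set against a mean that holds them, which raises their r. Over the 10 tumours these were Alas2 (0.99), Hbb-bs (0.98), Slc4a1 (0.97) and Epb42 (0.96). Epor and Tfrc, which are outside the mean, had 0.48 and -0.10. The most alike genes outside the 9 were Mkrn1 (0.98), Tent5c (0.98), Hbb-bt (0.98), Itgb3 (0.98) and Hba-a1 (0.97). Over the 9 livers the genes did not move as 1 group. Klf1 had 0.89 with the mean of 5 genes, Slc4a1 0.62, Alas2 0.42, Gata1 0.38 and Epb42 0.28. Epor and Tfrc, outside the mean here too, had 0.53 and 0.34. The most alike there were Mki67 (0.97), Lancl2 (0.97), Gfap (0.95), Tnpo1 (0.95) and Hars (0.94). Each of these 5 was lowest in control 3, such as Mki67 at 454 CPM against 585 to 663 CPM in the other livers. Their r values thus lean on 1 liver, and they are the highest picked from all genes tested.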

How the data were processed

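Poly-A RNA of 9 embryonic livers and total RNA of 10 tumours was analysed. Raw counts by gene symbol, as deposited by the authors under that heading, make up the embryo table; a rescaled block of 9 columns was not read. The tumour files hold CPM deposited by the authors, scaled to each library's total, judged from the values (each sums to 1000000), and 100% of them were whole multiples of 1 read (tolerance 0.01), which gave whole reads. STAR 2.5.1b and DESeq2 for embryos, cutadapt 2.10, HISAT2, featureCounts, DESeq2 and R 4.1.2 for tumours, and mm10 are named per the submitters' processing notes, without roles; annotation, strand and treatment of shared reads are not given in the sources used here.

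Embryos were tested with edgeR 4.0.16 (quasi-likelihood, TMM, filterByExpr, genotype alone) under R 4.3.3. Since the tumour unit was CPM and not counts, tumours were tested with limma 3.58.1 (trend) on log2(CPM + 1), which understates changes of weakly expressed genes, where the average reached 1 CPM. Two-sided p-values were adjusted by Benjamini-Hochberg over all genes tested, with a threshold of 0.05. Both fits were tested on simulated data. GENCODE M21 gave symbols for 17469 of 17606 tumour IDs. Libraries of a group differed by more than counting noise (lowest chi-square per degree of freedom 12.5), and each was counted once. That difference does not show that they came from separate animals. Floors are 3 counts and cover counting error only. Besides the 9 genes, the text names from each list up to 3 called genes with the largest change, or else the gene with the smallest p, and the 5 genes most alike; markers called and other genes mentioned were chosen after their values were seen. Some genes that this rule would name are not reported here. The genes and lists were chosen with earlier results of these data known. Alternatives were DESeq2 1.42.0, other scaling, filters, pseudocount and covariates, recovered reads, a replicate block and each library left out; 3 were added after seeing the data (vehicle 1 and 5 left out together, recovered reads without vehicle 3, genotype by library set).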

Additional observations from a re-analysis of the deposited data

Results flagged for a closer look

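Alas2 in vehicle tumour 3, at 1646 CPM, lay far from the other 4 vehicle tumours, which ranged from 37.2 to 455 CPM. The gap to the nearest was 0.740 of the range of the group. It was the only such value among 29 groups of 4 or 5 libraries examined, and chance marks about 5% of groups. Vehicle 3 also had the highest share of globin reads, 9.50%. The part of either in the other was not tested.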

How the results depend on the processing

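The count of 0 erythroid genes called held in all 20 tumour alternatives and in 16 of 18 embryo alternatives, the exceptions being library set as a covariate, with 1 gene, and the livers of high ribosomal protein share alone, with 2. All genes called in the embryos were 1704, against 4397 with library set as a covariate, 2589 within the livers of high share and 2950 within the others, 2484 in DESeq2, and 969 to 1581 with a single embryo left out, lowest without control 3, 987 without fusion 8 and 1107 without fusion 7. In the tumours 0 genes were called except for 8 in DESeq2 on recovered reads. Some signs turned. Within the livers of high share the log2 fold change was -0.073 for Klf1 and -0.0010 for Mki67; within the others it was 0.023 for Gata1, 0.18 for Tfrc, 0.0093 for Epor and 0.23 for Gfap. With a single embryo left out Tfrc ranged from -0.24 to 0.15, Epor from -0.077 to 0.016 and Gfap from -0.22 to 0.028. Tfrc in the tumours was -0.10 with TMM factors, -0.10 without mitochondrial genes, -0.14 in edgeR and -0.15 in DESeq2 on recovered reads, -0.20 without vehicle 1 and 5 together, -0.16 in edgeR without vehicle 3, and from -0.21 to 0.25 with a single tumour left out. The cause was not tested. The replicate block called 0 genes in the tumours (limma adjusted p = 0.999 for Alas2). Over all genes, tumours of the same number did not deviate together (r from -0.32 to 0.0022), so no pairing by number was seen. These few values cannot exclude it, and the labels do not say whether a number marks a shared day or batch. No paired analysis was possible in the embryos because the groups share no number. Vehicle 5 limits what can be seen of low genes, since its floor of 1.01 CPM lies above most Gata1 and Klf1 values.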
